A study of Homo sapiens with 12 samples.

Results

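Genes described as targets of the transcription factor MITF, but with roles outside the making of pigment, were followed in melanoma cells with and without a hairpin against MITF. They were taken by symbol from the 12616 genes of the deposited expression table, and all 10 were measured: GPNMB, ACP5, TBC1D16, CAPN3, APOE, PNLIPRP3, FAM69C, PRDM7, HIF1A and DIAPH1. PNLIPRP3, FAM69C and PRDM7 entered the list because their change with doxycycline (Dox) was large in these same libraries, so their values are given as a description with no test. The other 7 were proposed with results of these libraries in view, and their calls are read only beside the share of all genes called.

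MeWo and SkMel28 are human cutaneous melanoma lines, and here each carried a short hairpin RNA against MITF that Dox switches on. The 4 groups were MeWo and SkMel28 at 0 µg/ml Dox (control) and at 1 µg/ml Dox, all for 8 days, with 3 libraries per group and 12 in all. Per the labels MeWo grew in EMEM and SkMel28 in RPMI, each with serum, while the methods of the study name RPMI for human melanoma cells. If the labels hold, line and medium cannot be told apart. No group was a line given Dox without the hairpin, so a change with Dox is the change with drug and hairpin together. Nothing states that the libraries of a group came from separate cultures, and the p-values may measure technical spread only.

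MITF is a basic helix-loop-helix leucine zipper factor of the MiT/TFE family that binds E-box and M-box DNA as a dimer. In melanocytes it drives the pigment enzymes, but its targets also include genes of lysosomes, vesicle traffic, survival and metabolism. In osteoclasts the same factor drives ACP5 and the cathepsin CTSK, which these cells use to resorb bone. The 10 genes cover vesicle and lysosome proteins (GPNMB, ACP5, TBC1D16), a protease (CAPN3), lipid proteins (APOE, PNLIPRP3), a kinase-like membrane protein (FAM69C), nuclear proteins (PRDM7, HIF1A) and an actin nucleator (DIAPH1).

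The promoters of these genes were searched for the letters that MITF is known to bind. RefSeq (GRCh38.p14) gave a promoter, from 250 bases before to 50 bases after a start, for 9 of the 10 genes. TBC1D16 had no promoter entry and was not searched, so nothing is known here of its letters. The letters were the E-box CACGTG, its extended form TCACGTG, which contains the E-box, and the M-box core TCATGTG, each on both strands. Of all 35116 promoters, 7.26% held the E-box, 3.71% the extended form and 2.92% the M-box core. GPNMB, ACP5 and DIAPH1 held a match, shown here with 10 bases on each side, 5′ to 3′ on the strand of the gene and with the match in capitals. CACATGA is the M-box core read on the other strand.
GPNMB M-box, chr7:23246642-23246668, plus strand: gagtcataagCACATGAgttgtaagag
GPNMB M-box, chr7:23246703-23246729, plus strand: ttaataccatCACATGAtcctccccga
ACP5 E-box, chr19:11577811-11577836, minus strand: ggctgctgcaCACGTGtgcccagatc
ACP5 M-box, chr19:11577744-11577770, minus strand: gtccagggctCACATGAcccaagggga
DIAPH1 E-box, chr5:141619186-141619211, minus strand: caccccccccCACGTGggtccgaatg

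Counting the first transcribed base as 0, the GPNMB matches began at -123 and -62, the first in an intron and the second in untranslated exon sequence of at least 1 annotated transcript. The ACP5 matches lay before 1 of its 4 RefSeq starts, at -181 and -115, both in untranslated exon sequence of at least 1 transcript. The DIAPH1 match began at -201, outside the annotated gene. The genes with the largest decreases among the 10 in MeWo, PNLIPRP3, FAM69C and PRDM7, held none of the letters in this window, and the 100 bases before each start are shown to let the sequences be compared.
PNLIPRP3, chr10:116427747-116427846, plus strand, outside the gene: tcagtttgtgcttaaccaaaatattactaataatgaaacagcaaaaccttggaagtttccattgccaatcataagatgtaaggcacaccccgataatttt
FAM69C, chr18:74457309-74457408, minus strand, in an intron of a longer form: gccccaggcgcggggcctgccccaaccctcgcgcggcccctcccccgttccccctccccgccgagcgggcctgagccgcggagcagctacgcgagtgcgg
PRDM7, chr16:90077332-90077431, minus strand, in an intron of a longer form: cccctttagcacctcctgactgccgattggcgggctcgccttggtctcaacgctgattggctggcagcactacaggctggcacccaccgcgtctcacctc

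Libraries held 2568187 to 3714608 reads, and 1 read was worth a value of 0.278 to 0.389 (reads per 1000000 of the effective library size). All 6 melanocytic markers checked (SOX10, MITF, PMEL, MLANA, TYR and S100B) had at least 164 reads in every library. MeWo Dox replicate 1 stood apart. Its log2 values correlated with the other MeWo Dox libraries at r = 0.960 and 0.969, against 0.976 to 0.985 in all other pairs of 1 group. Without it, 31.0% of all genes were called in MeWo in place of 16.7%. The MeWo change of each of the 10 genes, and each MeWo count over a gene list that this library moves, is therefore also given without it. Every count over a gene list is read beside the share of all genes called in the same fit. Scaling to the spike-in RNAs moved the median log2 change of all genes from 0.00 to 0.22 in MeWo and to -0.08 in SkMel28. In bulk RNA, fewer cells with a transcript and less of it per cell cannot be told apart.

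MITF itself was 657, 663 and 708 in the MeWo control libraries and 451, 354 and 371 with Dox. In SkMel28 it was 861, 739 and 792 in control and 575, 578 and 552 with Dox. The groups did not overlap in either line. MITF fell by 42.0% in MeWo (log2 change -0.79 ± 0.11 SE, adjusted p = 6.49e-05) and by 28.7% in SkMel28 (-0.49 ± 0.11, adjusted p = 0.00705).

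Of the 7 genes not picked by size of change, 2 were called with Dox in MeWo, TBC1D16 lower and CAPN3 higher, where 16.7% of all genes were called. In SkMel28 4 were called, GPNMB and CAPN3 higher and TBC1D16 and APOE lower, beside 10.9% of all genes. With MeWo Dox replicate 1 left out, 3 of the 7 were called in MeWo, HIF1A being added, beside 31.0% of all genes in that fit. A gene is called at an adjusted p under 0.05 in the limma fit of log2(value + 1). The groups did not overlap for 2 of the 7 genes in MeWo, beside 28.8% of all genes, and for 5 of the 7 in SkMel28, beside 32.3%. The median log2 change of the 7 genes was -0.12 in MeWo and -0.25 in SkMel28, beside 0.00 over all genes in each line, and spike-in scaling shifts all changes as given above.

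**Figure D1:**
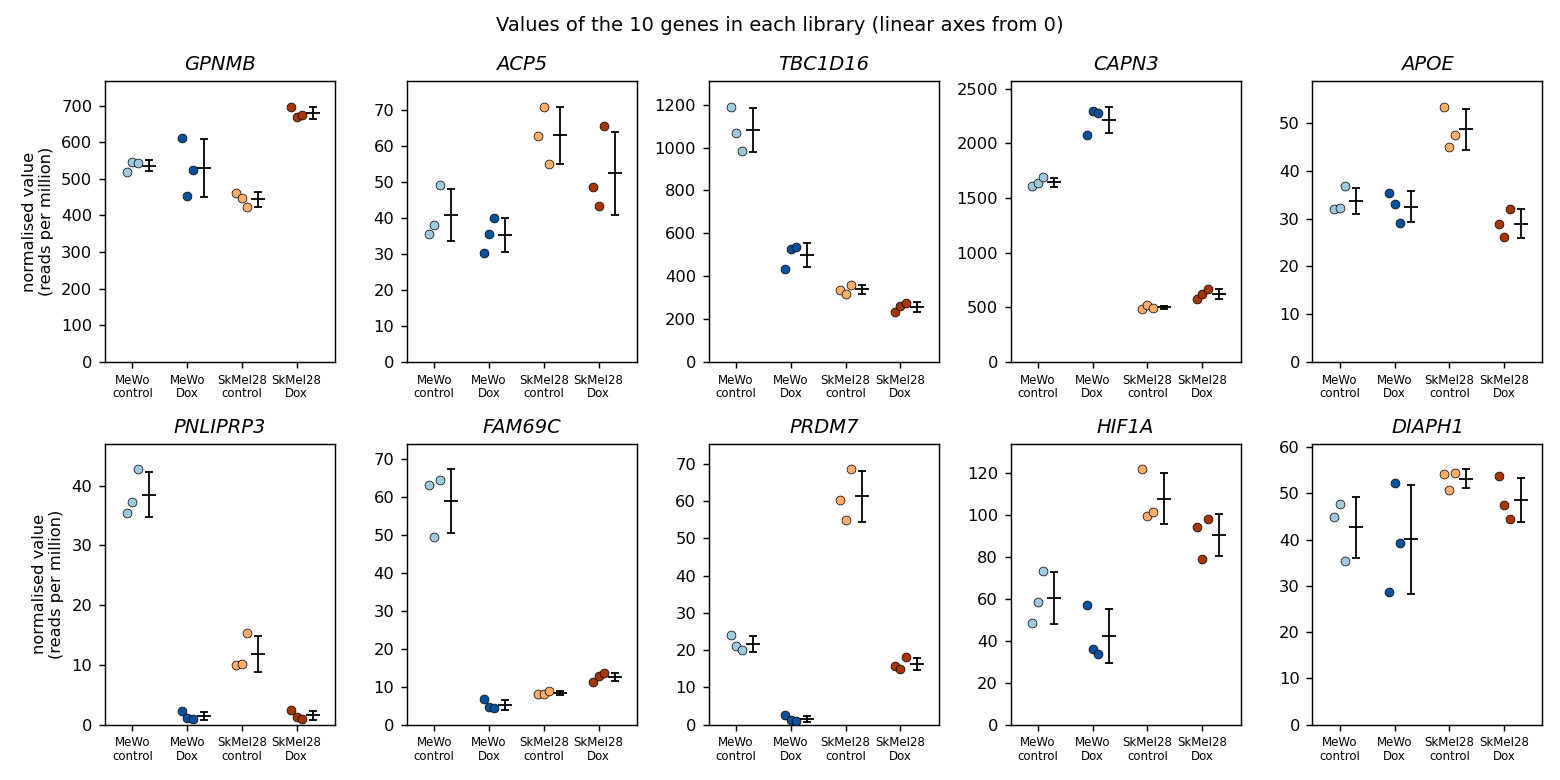
Normalised value (reads per 1000000, linear axes from 0) of each gene in each of the 12 libraries, by group. Points are libraries in replicate order, and the black bar beside them is the mean ± SD (n = 3). PNLIPRP3 and PRDM7 drop in both lines with Dox, FAM69C drops in MeWo and is higher in SkMel28, and GPNMB is higher with Dox in SkMel28 while its MeWo groups overlap.

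GPNMB encodes a membrane glycoprotein of melanosomes and lysosomes and is a relative of the melanosome fibre protein PMEL. In MeWo it was 518, 547 and 544 in control and 611, 454 and 525 with Dox. The Dox libraries spread to both sides of the controls, and the change was not called (log2 -0.03 ± 0.11 SE, 95% interval -0.26 to 0.20, adjusted p = 0.909). Without MeWo Dox replicate 1 it was -0.13 (adjusted p = 0.282). In SkMel28 it was 462, 448 and 423 in control and 697, 668 and 673 with Dox. Every SkMel28 Dox library was above every control, by 53.1% in the mean (0.61 ± 0.11, adjusted p = 0.0012). GPNMB thus rose in SkMel28 while MITF fell in the same libraries.

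The change of GPNMB with Dox differed between the lines by -0.64 on the log2 scale (MeWo minus SkMel28, SE 0.16, adjusted p = 0.0194). TBC1D16, described below, was the other of the 7 genes with such a difference. Both were negative, beside 7.09% of all genes called in this comparison and 3.38% called with a negative difference. The GPNMB difference was no longer called in 4 of 12 fits that left out 1 library. These were the fits without MeWo control replicate 2 (adjusted p = 0.0613), MeWo control replicate 3 (0.055), SkMel28 control replicate 3 (0.0579) and SkMel28 Dox replicate 1 (0.0578). With spike-in scaling the difference was -0.27 (adjusted p = 0.543) and the rise in SkMel28 was 0.51 (adjusted p = 0.0838), no longer called.

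Of 5 partners and relatives of GPNMB, 3 were called higher and 1 lower in SkMel28, and 1 higher and 1 lower in MeWo. Of all genes, 10.9% were called in SkMel28 and 16.7% in MeWo. In SkMel28 the adhesion receptor CD44 rose by 0.95 on the log2 scale, the integrin subunit ITGB1 by 0.75 and the proteoglycan SDC4 by 0.70. ITGB1 was also the gene called higher in MeWo, by 0.73 (limma adjusted p = 0.0151), where GPNMB was not called. PMEL itself was 7450.0 ± 243 in MeWo control and 3261 ± 263 with Dox (SD, n = 3; log2 change -1.19, adjusted p = 4.9e-07). Its SkMel28 means were 6562 ± 406 and 2569 ± 34.0 (-1.35, adjusted p = 2.73e-07), so PMEL fell in both lines. The related genes GPNMB and PMEL thus moved in opposite directions with Dox in SkMel28. When MeWo Dox replicate 1 was left out, 1 was called higher and 2 lower in MeWo, beside 31.0% of all genes. The list's median was -0.13 in MeWo, turning to 0.14 with spike-in scaling, and 0.70 in SkMel28.

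ACP5 encodes tartrate-resistant acid phosphatase, a lysosomal and secreted enzyme known as a marker of osteoclasts. It was 35.7, 38.1 and 49.2 in MeWo control and 30.3, 35.6 and 40.0 with Dox. The SkMel28 values were 62.9, 71.1 and 55.2 in control and 48.7, 43.5 and 65.6 with Dox. The groups overlapped in both lines. Neither change was called: -0.21 on the log2 scale in MeWo (95% interval -0.58 to 0.17, adjusted p = 0.469) and -0.27 in SkMel28 (-0.65 to 0.10, adjusted p = 0.387). The MeWo value turned to 0.06 with spike-in scaling and was -0.10 without MeWo Dox replicate 1 (adjusted p = 0.708). All 9 annotated 3′ ends of ACP5 lie within ZNF627, a gene of the opposite strand. The strand used in counting is not given in the sources used here, and reads of the pair cannot be told apart without it; ZNF627 itself had group means of 4.11 to 7.12.

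Of 7 other measured genes that MITF and its relatives drive in osteoclasts, 4 were called lower and 2 higher in MeWo, and 2 lower and 1 higher in SkMel28. The share of all genes called was 16.7% in MeWo and 10.9% in SkMel28. CTSK, the collagen-cutting cathepsin of osteoclasts, fell from 278 ± 11.2 to 20.7 ± 11.1 in MeWo (log2 change -3.79, adjusted p = 6.11e-09). In SkMel28 CTSK was 121 ± 18.4 in control and 81.4 ± 6.73 with Dox (-0.56, adjusted p = 0.135), and the difference between the lines was called (-3.23, adjusted p = 1.66e-05). ATP6V0D2, a subunit of the proton pump of osteoclasts and lysosomes, fell in both lines. Its means were 10.0 ± 1.86 in control and 0.492 ± 0.584 with Dox in MeWo, and 17.8 ± 3.17 and 0.829 ± 0.757 in SkMel28, with 0 to 5 reads per Dox library. CLCN7, a lysosomal chloride channel, fell by 0.89 and 0.82 on the log2 scale. TNFRSF11A, the receptor for the osteoclast factor RANKL, rose by 1.66 and 1.75. The median of the list was -0.51 in MeWo and -0.07 in SkMel28. Among 3 other acid phosphatases measured, ACP6 rose in MeWo from 10.7 ± 1.22 to 27.0 ± 4.16 (1.25, adjusted p = 0.000568), and ACP2 rose by 0.60. In SkMel28 0 of the 3 were called by limma, by edgeR or by DESeq2, and 0 had an unadjusted p under 0.05. The median of the 3 was 0.60 in MeWo and 0.12 in SkMel28.

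TBC1D16 encodes a GTPase-activating protein that switches off Rab proteins in endosome traffic. It was 1191, 1068 and 986 in MeWo control and 435, 528 and 538 with Dox. Its values in SkMel28 were 335, 319 and 359 in control and 232, 263 and 274 with Dox. In both lines every Dox library was below every control. TBC1D16 fell by 53.8% in MeWo (log2 change -1.11 ± 0.12, adjusted p = 3.33e-06) and by 24.1% in SkMel28 (-0.40 ± 0.12, adjusted p = 0.0341). The decreases differed between the lines (-0.71 ± 0.16, adjusted p = 0.0147). MITF fell in both lines as well, and its own difference between the lines was not called (-0.31 ± 0.15, adjusted p = 0.225).

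The MeWo decrease of TBC1D16 was -1.02 without MeWo Dox replicate 1 (adjusted p = 4.45e-07). The SkMel28 call was lost in 6 of 12 fits that left out 1 library, with adjusted p from 0.0507 to 0.171, namely those without MeWo control replicate 2, any SkMel28 control library, or SkMel28 Dox replicate 1 or 2. It was also lost with spike-in scaling (-0.50, adjusted p = 0.0901), as was the difference between the lines (-0.34, adjusted p = 0.405). Of 34 other Rab-GAP genes of the TBC family, 4 were called higher and 5 lower in MeWo and 2 higher and 1 lower in SkMel28. Over all genes the shares called were 16.7% and 10.9%. With MeWo Dox replicate 1 left out, 4 were called higher and 8 lower in MeWo, 35.3% of the list beside 31.0% of all genes. TBC1D7, a subunit of the TSC complex that restrains mTORC1, fell in both lines, by 0.51 and 0.75 on the log2 scale. SGSM3 rose in MeWo from 70.4 ± 6.93 to 167 ± 61.8 (1.15, adjusted p = 0.0023), and TBC1D23, a Golgi tethering protein, rose in SkMel28 from 10.3 ± 2.25 to 19.0 ± 1.55 (0.85, adjusted p = 0.0256). The family's median was -0.07 in MeWo, turning to 0.18 with spike-in scaling, and 0.04 in SkMel28, turning to -0.05.

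CAPN3 encodes a calcium-dependent protease best known from skeletal muscle, where its loss causes a limb-girdle muscular dystrophy. It was 1606, 1637 and 1688 in MeWo control and 2080.0, 2297 and 2275 with Dox. SkMel28 cells had 488, 517 and 494 in control and 573, 624 and 668 with Dox. In both lines every Dox library was above every control, opposite to MITF. CAPN3 rose by 34.9% in MeWo (log2 change 0.43 ± 0.10, adjusted p = 0.00577) and by 24.5% in SkMel28 (0.31 ± 0.10, adjusted p = 0.0492), with no call on the difference (0.12, 95% interval -0.18 to 0.41, adjusted p = 0.63).

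The MeWo rise of CAPN3 was 0.48 without MeWo Dox replicate 1 (adjusted p = 0.000357), and it was not called with the MeWo libraries fitted alone (adjusted p = 0.053). The SkMel28 call stood at the threshold: it was lost in 10 of 12 fits that left out 1 library (adjusted p 0.0528 to 0.164), all but those without MeWo Dox replicate 1 or 2. With spike-in scaling the SkMel28 change was 0.21 (adjusted p = 0.56). The SkMel28 call was also lost in edgeR's quasi-likelihood test (adjusted p = 0.0502). In limma it was lost with a pseudocount of 0.1 (0.0501), with spike-ins kept (0.0504) and with no mean-variance trend (0.161). At its 3′ end CAPN3 overlaps ZNF106 on the opposite strand, which holds 1 of its 38 annotated ends. ZNF106 was not called in either line. Of 9 other calpain genes measured, CAPN5 rose in MeWo from 29.5 ± 0.697 to 90.5 ± 13.2 (1.58, adjusted p = 0.000901), and the calpain inhibitor CAST fell by 0.59. In MeWo 16.7% of all genes were called. When MeWo Dox replicate 1 was left out, 2 of the list were called higher and 2 lower in MeWo, beside 31.0% of all genes. In SkMel28 0 of the 9 were called by limma, edgeR or DESeq2, and 3 had an unadjusted limma p under 0.05. The median was 0.07 in MeWo and -0.07 in SkMel28.

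APOE encodes apolipoprotein E, a secreted carrier of cholesterol and other lipids. It was 32.0, 32.3 and 36.9 in MeWo control and 35.4, 33.0 and 29.1 with Dox, and the groups overlapped (log2 change -0.05 ± 0.15, 95% interval -0.37 to 0.26, adjusted p = 0.858). Without MeWo Dox replicate 1 the change was -0.11 (adjusted p = 0.622). In SkMel28 it was 53.5, 45.1 and 47.5 in control and 28.8, 26.1 and 32.0 with Dox. Every SkMel28 Dox library was below every control. APOE fell by 40.5% in the mean there (-0.73 ± 0.15, adjusted p = 0.00339). The difference between the lines was 0.68 (95% interval 0.24 to 1.12) and missed the threshold (adjusted p = 0.0586). It was called without MeWo Dox replicate 1 (0.62, adjusted p = 0.0355) and with spike-in scaling (1.04, adjusted p = 0.0186).

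Of 16 other apolipoproteins and lipoprotein receptors, 2 were called higher and 1 lower in MeWo, and 4 higher and 1 lower in SkMel28. Over all genes the shares called were 16.7% and 10.9%. Without MeWo Dox replicate 1, 4 were called higher and 1 lower in MeWo, 31.2% of the list beside 31.0% of all genes. APOD, a small lipid-binding lipocalin, rose in both lines. Its MeWo means were 4.98 ± 2.37 in control and 49.0 ± 14.1 with Dox (log2 change 3.12, adjusted p = 2.24e-07), and its SkMel28 means 91.6 ± 13.2 and 229 ± 22.9 (1.32, adjusted p = 0.00251). LRP1, a receptor of APOE, rose by 0.96 on the log2 scale in MeWo and by 1.01 in SkMel28. The scavenger receptor SCARB1 fell by 1.03 in SkMel28. The median of the list was 0.02 in MeWo and 0.12 in SkMel28.

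PNLIPRP3 belongs to the pancreatic lipase family. It was 35.4, 37.3 and 42.8 in MeWo control and 2.23, 1.14 and 1.02 with Dox, the last from 7, 3 and 3 reads. In SkMel28 it was 10.0, 10.2 and 15.3 in control and 2.37, 1.34 and 0.907 with Dox, from 8, 4 and 3 reads. The groups lay far apart in both lines. The mean was 26.3-fold lower in MeWo and 7.69-fold lower in SkMel28. On the log2(value + 1) scale, which understates the change of low genes, the changes were -4.03 and -2.35, and the first was -4.25 without MeWo Dox replicate 1. With pseudocounts of 0.1 and 5 in place of 1 they were -4.70 and -2.75 in MeWo and -2.94 and -1.36 in SkMel28. No listed gene fell further in MeWo by this measure, and 3 fell further in SkMel28. These ranks reflect how PNLIPRP3 was picked, by the size of its change, and support nothing further. Only LPL and PLA1A of the lipase family were also measured. LPL rose in MeWo from 4.40 ± 2.13 to 14.0 ± 1.90 (1.56, adjusted p = 0.00258). PLA1A, a phospholipase of phosphatidylserine, fell in SkMel28 from 736 ± 86.0 to 153 ± 3.30 (-2.25, adjusted p = 1.41e-05) and was at or below a mean of 1.45 in MeWo.

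FAM69C, now named DIPK1C, encodes a protein of the endoplasmic reticulum with a kinase-like fold. It was 63.1, 49.3 and 64.5 in MeWo control and 6.70, 4.55 and 4.40 with Dox. SkMel28 libraries held 8.07, 7.93 and 8.81 in control and 11.3, 12.7 and 13.6 with Dox. The groups were apart in both lines, in opposite directions. The mean was 11.3-fold lower with Dox in MeWo and 1.51-fold higher in SkMel28, log2 changes of -3.28 and 0.54, with -3.44 in MeWo without MeWo Dox replicate 1. The difference of -3.82 between the lines was lower than that of all but 1 other gene, a rank that reflects the pick by size of change. The relatives FAM69A, FAM69B and C3orf58 (DIPK2A) were all called lower in MeWo (3 of 3), beside 8.12% of all genes. In SkMel28 0 were called by limma, edgeR or DESeq2, and 0 had an unadjusted p under 0.05. FAM69A fell in MeWo from 11.7 ± 1.79 to 4.45 ± 1.02 (-1.22, adjusted p = 0.00224), with 4.23 ± 0.460 and 3.86 ± 0.857 in SkMel28. The difference between the lines for FAM69A was not called (-1.10, adjusted p = 0.0616). The median of the 3 relatives was -0.97 in MeWo and -0.12 in SkMel28. Without MeWo Dox replicate 1, 2 of them were called in MeWo, beside 31.0% of all genes.

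PRDM7 encodes a histone methyltransferase, a close copy of PRDM9, the factor that places meiotic recombination. It was 24.2, 21.0 and 20.1 in MeWo control and 2.55, 1.14 and 1.02 with Dox, the last from 8, 3 and 3 reads. The SkMel28 libraries gave 60.4, 54.9 and 68.6 in control and 15.7, 15.0 and 18.1 with Dox. The mean was 13.9-fold lower with Dox in MeWo and 3.76-fold lower in SkMel28, log2 changes of -3.19 and -1.85. Without MeWo Dox replicate 1, the library with the highest PRDM7 of its group, the MeWo change was -3.45. With pseudocounts of 0.1 and 5 it was -3.82 and -2.03 over all 3 libraries, and the difference between the lines was -1.92 and -0.39, beside -1.34 with 1. PRDM9 was not analysed here, and how reads shared by the pair were assigned is not given in the sources used here. Of 9 other PRDM genes, 0 were called in MeWo by limma, edgeR or DESeq2, with an unadjusted limma p under 0.05 for 2. Without MeWo Dox replicate 1 limma called 1 higher. Of all genes limma called 16.7% in MeWo, and 31.0% without that library. PRDM4 was called lower in SkMel28 (from 21.2 ± 3.62 to 13.4 ± 3.51, -0.65, adjusted p = 0.048). The family's median was 0.15 in MeWo and -0.13 in SkMel28.

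HIF1A encodes the oxygen-regulated subunit of the hypoxia factor HIF-1, whose protein level is set mainly by its breakdown. It was 48.7, 58.7 and 73.2 in MeWo control and 56.8, 36.0 and 33.5 with Dox. Replicate 1 with Dox lay within the controls and the other Dox libraries lay below them. The MeWo change was not called (log2 -0.52 ± 0.19, 95% interval -0.92 to -0.13, adjusted p = 0.0658). It was called without MeWo Dox replicate 1 (-0.76, adjusted p = 0.00109) and without MeWo control replicate 1 (-0.67, adjusted p = 0.0461). In SkMel28 it was 122, 99.6 and 101.5 in control and 94.4, 78.9 and 97.9 with Dox. The groups did not overlap, but the change of -0.25 ± 0.19 was not called (95% interval -0.65 to 0.15, adjusted p = 0.469).

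Among 6 other HIF subunits and oxygen sensors, the prolyl hydroxylase EGLN1 fell in MeWo from 34.0 ± 3.28 to 23.0 ± 3.59 (-0.55, adjusted p = 0.042) and was the 1 gene called there. When MeWo Dox replicate 1 was left out, 1 of the 6 was called higher and 2 lower in MeWo, beside 31.0% of all genes. In SkMel28 0 of the 6 were called by limma, edgeR or DESeq2, and 2 had an unadjusted limma p under 0.05. EPAS1, the sister subunit HIF-2α, was 16.6 ± 5.91 in MeWo control and 8.98 ± 3.03 with Dox (-0.80, adjusted p = 0.0865). ARNT, the partner of both, was 49.9 ± 2.94 and 56.2 ± 8.09. Of 27 HIF-1 target genes, 6 were called higher and 4 lower in MeWo, and 2 higher and 3 lower in SkMel28. The share of all genes called was 16.7% in MeWo and 10.9% in SkMel28. DDIT4, an inhibitor of mTORC1, rose in MeWo from 29.3 ± 2.62 to 131 ± 46.9 (2.06, adjusted p = 3.45e-06) and was 96.4 ± 20.4 and 76.1 ± 3.91 in SkMel28, a called difference between the lines (2.38, adjusted p = 0.000182). The glycolytic enzyme PGK1 fell in both lines, by 0.42 and 0.52. PFKFB4, another glycolytic regulator, rose by 1.01 in MeWo and fell by 0.69 in SkMel28. The median of the targets was -0.03 in MeWo, turning to 0.21 with spike-in scaling, and -0.12 in SkMel28. With MeWo Dox replicate 1 left out, 6 were called higher and 7 lower in MeWo, beside 31.0% of all genes.

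DIAPH1 encodes a formin that nucleates and elongates actin filaments. It was 44.9, 47.8 and 35.3 in MeWo control and 28.7, 52.3 and 39.3 with Dox. The values of SkMel28 were 54.3, 50.8 and 54.4 in control and 53.7, 47.5 and 44.4 with Dox. The groups overlapped in both lines. The changes were -0.12 in MeWo (95% interval -0.51 to 0.27, adjusted p = 0.725) and -0.13 in SkMel28 (-0.52 to 0.26, adjusted p = 0.735), neither called, and the MeWo value turned to 0.10 without MeWo Dox replicate 1 and to 0.15 with spike-in scaling. Of 13 other formins and profilins, FMNL2, a formin of the cell edge, was the 1 gene called, and it was higher in both lines. Over all genes the shares called were 16.7% in MeWo and 10.9% in SkMel28. When MeWo Dox replicate 1 was left out, 2 genes of the list were called higher in MeWo, beside 31.0% of all genes. FMNL2 had means of 80.4 ± 7.54 in control and 139 ± 25.6 with Dox in MeWo (0.77, adjusted p = 0.000572), and of 115.5 ± 7.96 and 157 ± 3.89 in SkMel28 (0.44, adjusted p = 0.0427). The median of the list was 0.14 in MeWo and 0.07 in SkMel28, the second turning to -0.02 with spike-in scaling.

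**Figure D2:**
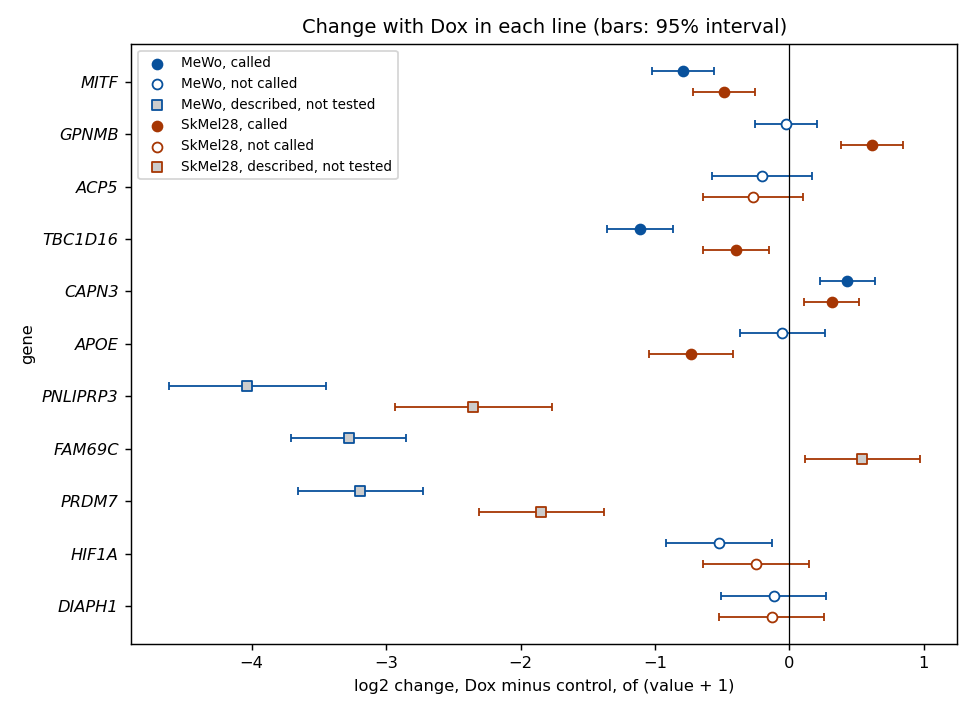
Change with Dox on the log2(value + 1) scale for MITF and the 10 genes in MeWo (blue) and SkMel28 (brown), with 95% intervals from the limma fit. Filled circles were called, open circles were not, and grey squares are genes picked by the size of their change, which were not tested. The intervals of the grey squares take no account of that pick and are not to be read as tests. CAPN3 lies above 0 in both lines, and TBC1D16 lies below 0 in both.

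The lines also differed in these genes without Dox. Of the 7 genes, 6 were called between the control groups, beside 51.4% of all genes. GPNMB, TBC1D16 and CAPN3 were lower in SkMel28 than in MeWo, beside 24.8% of all genes called lower, and ACP5, APOE and HIF1A were higher, beside 26.6%. CAPN3 was 3.29-fold lower in SkMel28 (log2 difference -1.72 ± 0.10, adjusted p = 1.84e-10) and TBC1D16 was 3.20-fold lower (-1.67 ± 0.12, adjusted p = 2.2e-09). HIF1A was 1.79-fold higher in SkMel28 (0.84 ± 0.19, adjusted p = 0.00119), ACP5 1.54-fold (0.62 ± 0.18, adjusted p = 0.0078) and APOE 1.44-fold (0.52 ± 0.15, adjusted p = 0.00765). For DIAPH1 the difference was 0.32 (95% interval -0.07 to 0.71, adjusted p = 0.156). MITF itself differed by 0.24 (95% interval 0.01 to 0.47, adjusted p = 0.0794).

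The GPNMB line difference (-0.27 ± 0.11, adjusted p = 0.047) was lost in 10 of 12 fits that left out 1 library, with adjusted p from 0.0508 to 0.139, all but those without MeWo Dox replicate 1 or 2. It was also lost in both count tests and, at -0.12, with spike-in scaling (adjusted p = 0.611). Of the genes picked by size, PNLIPRP3 was 3.25-fold lower and FAM69C 7.12-fold lower in SkMel28 control than in MeWo control, and PRDM7 was 2.82-fold higher. With Dox, FAM69C was thus at 5.22 ± 1.29 in MeWo and 12.5 ± 1.17 in SkMel28, after 59.0 ± 8.35 and 8.27 ± 0.473 in control. PNLIPRP3 was at about the same level in both lines with Dox, 1.46 ± 0.671 and 1.54 ± 0.755, at 3 to 8 reads per library.

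A list of 56 other genes described as MITF targets, all of them measured, was written with earlier results of these data known. It includes FNIP2 and RRAGD, which the study proposes as targets partly from MeWo cells depleted of MITF. The calls on the list are therefore a description. In MeWo 36 of the 56 were called lower and 1 higher, beside 8.12% of all genes called lower and 8.58% higher. In SkMel28 24 were called lower and 4 higher, beside 5.04% and 5.88%. Their median log2 change was -0.69 in MeWo and -0.36 in SkMel28, and it kept its sign with spike-in scaling (-0.42 and -0.46). With MeWo Dox replicate 1 left out, 37 were called lower and 3 higher in MeWo, in a fit that called 31.0% of all genes. FAM174B fell furthest in MeWo, from 17.3 ± 1.19 to 2.01 ± 1.25 (-2.68, adjusted p = 5.37e-06). The cation channel TRPM1, a gene of the melanocyte lineage, fell in both lines. It had means of 96.7 ± 3.81 in control and 14.8 ± 1.63 with Dox in MeWo, and of 53.8 ± 3.46 and 12.7 ± 2.20 in SkMel28. Of the 7 genes tested here, 1 was called lower in MeWo and 2 in SkMel28. The 7 leave out PNLIPRP3, FAM69C and PRDM7, which had the largest falls of the 10 in MeWo. Their counts therefore cannot be set against those of the longer list.

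**Figure D3:**
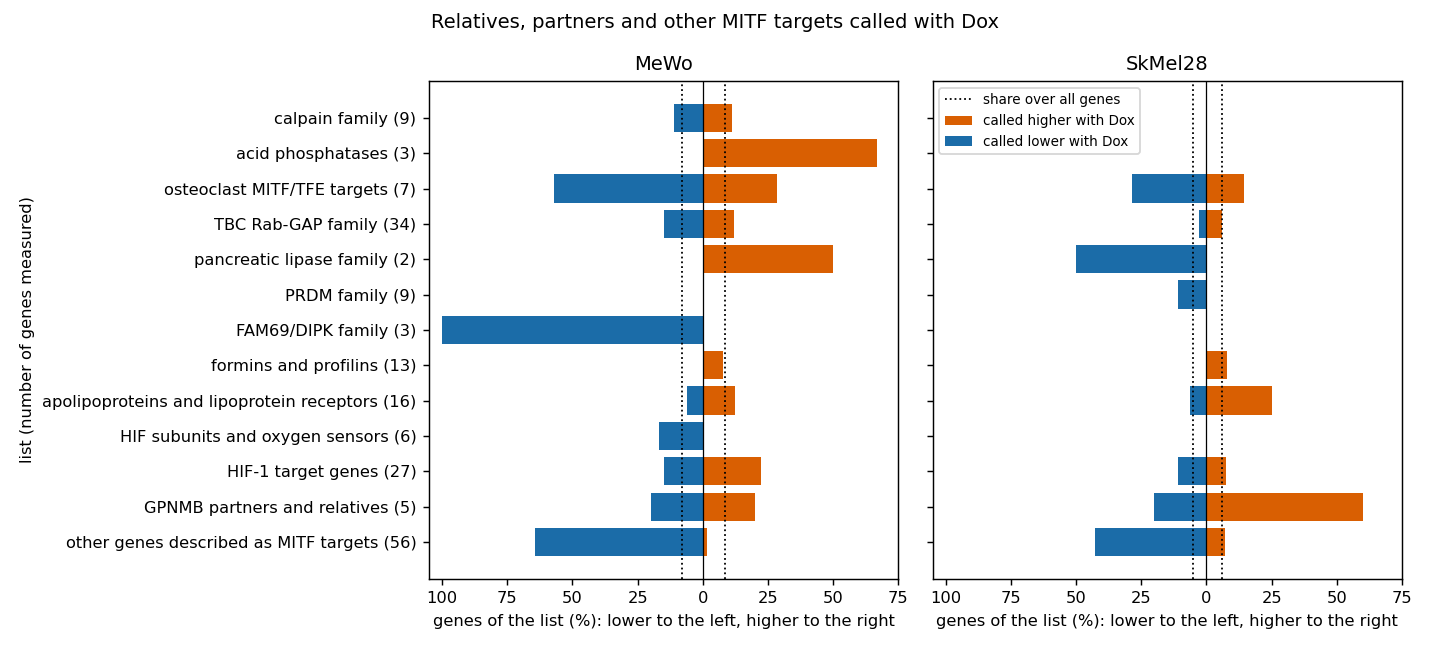
Share of each list of relatives, partners and other MITF targets called lower (left, blue) or higher (right, orange) with Dox in MeWo and SkMel28, with the number of measured genes in brackets and the share over all genes as dotted lines. The 56 other MITF targets were listed with earlier results of these data known. Of them, 36 were called lower and 1 higher in MeWo and 24 lower and 4 higher in SkMel28. Short lists such as the 3 FAM69 relatives reach high shares from few genes.

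The pattern of each gene over the 12 libraries was set beside all genes with a mean of at least 10. The r values are descriptions over 4 groups of 3 libraries, which share lines and treatment. PNLIPRP3, FAM69C and PRDM7 were picked by a large change with Dox in these libraries, where MITF also fell. Their r values partly reflect that pick and support nothing further. PRDM7 was most like HEBP1 (r = 0.98) and followed MITF itself with r = 0.973. PNLIPRP3 was most like TRPM1 (r = 0.979) and TBC1D16 most like CHCHD6 (0.989), a mitochondrial protein that fell by 1.29 in MeWo and 0.80 in SkMel28. FAM69C was most like TOM1 (0.949), an endosomal adaptor that fell in MeWo from 62.7 ± 5.32 to 23.7 ± 3.71 and was 33.6 ± 2.12 and 34.6 ± 3.86 in SkMel28. GPNMB was most like MXI1 (0.983), an antagonist of MYC, which rose in SkMel28 from 109 ± 12.1 to 220.1 ± 17.6 and was 158 ± 11.1 and 153 ± 32.8 in MeWo. CAPN3 was most like the collagen receptor kinase DDR1 (0.996). The values with MITF were 0.791 for HIF1A, 0.707 for PNLIPRP3, 0.625 for APOE, 0.607 for ACP5, 0.461 for FAM69C and 0.356 for DIAPH1. They were -0.67 for CAPN3, -0.25 for GPNMB and 0.00 for TBC1D16. Each value mixes the difference between the lines with the change with Dox. TBC1D16 was called lower with Dox in both lines, as was MITF.

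In the genome the nearest measured protein-coding genes were mostly not called with Dox. Of 19 neighbours of the 10 genes, 1 was called higher and 4 lower in MeWo and 1 higher and 0 lower in SkMel28 in the limma fit, with medians of -0.28 and 0.10. That fit called 16.7% of all genes in MeWo and 10.9% in SkMel28. For the 0, the unadjusted p was under 0.05 for 3 neighbours that were lower, and edgeR called 1 and DESeq2 0. GAA, the lysosomal acid glucosidase next to TBC1D16 (chr17:80101533-80119881), rose in MeWo from 92.1 ± 10.3 to 180 ± 27.8 (0.95, adjusted p = 0.000133), opposite to TBC1D16 (chr17:79932343-80035872). TAF7, next to DIAPH1, rose by 0.64 in SkMel28. PRKCH, a protein kinase C gene on the side of lower coordinates from HIF1A, fell in MeWo from 20.1 ± 2.23 to 5.46 ± 1.52 (-1.73, adjusted p = 4.8e-05). Both neighbours of FAM69C, CYB5A and CNDP2, fell in MeWo, by 0.86 and 0.59, less than FAM69C itself. The CYB5A groups overlapped there, at 37.9 to 43.8 in control and 16.3 to 40.9 with Dox. The neighbours of PNLIPRP3 and PRDM7 were not called in either line.

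**Figure D4:**
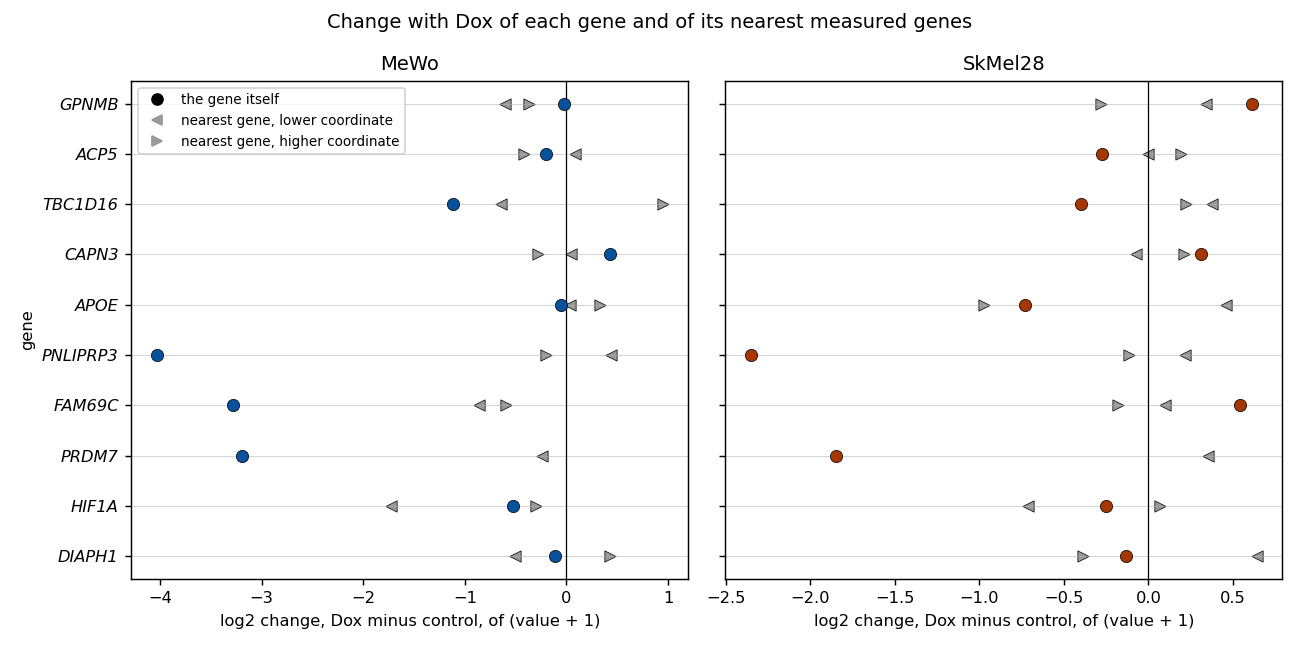
Log2 change with Dox of each of the 10 genes (circles) and of the nearest measured protein-coding genes at lower and higher coordinates (grey triangles) in MeWo and SkMel28, on the log2(value + 1) scale; the axes of the panels differ in range. PNLIPRP3, FAM69C and PRDM7, picked by the size of their change, lie far to the left of their neighbours in MeWo. PRDM7 has a measured neighbour on 1 side.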

How the data were processed

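The 12 libraries were made from total RNA with QuantSeq Forward, a kit for the 3′ ends of polyadenylated RNA, so a gene's value does not grow with its length. Per the submitters' processing notes the authors used FastQC 0.11.7, cutadapt 2.8, STAR 2.5.1b, edgeR and hg38; the counting tool, annotation and strand are not given in the sources used here. The deposited values are a normalised signal: in the authors' table a value is the gene's reads per 1000000 of the library's effective size. Of the 12683 features 67 were spike-in RNAs, which were left out of the tests, leaving 12616 genes.

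All values (100.0%, within 0.01 of a read) were whole multiples of the value of 1 read, so reads were recovered; edgeR's quasi-likelihood test (4.0.16) on them called 2045 genes in MeWo and 1422 in SkMel28, against 2107 and 1378 in the main test. That test was limma 3.58.1 (R 4.3.3) on log2(value + 1) over 4 group means with a mean-variance trend, two-sided, with Benjamini-Hochberg adjustment over 12616 genes and calls at an adjusted p under 0.05. On simulated data of the MeWo contrast (12616 genes) it called 100%, 86%, 94% and 100% of genes made with log2 changes of -2, -1, 1 and 2, and 4 unchanged genes. The changed genes were drawn from those with a mean of at least 10. All genes had the same dispersion, and no simulated library stood apart as MeWo Dox replicate 1 does. These shares check the code and do not give the power in the real libraries. Loci come from GENCODE v44 and promoters from RefSeq.

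The genes, lists and naming rules were chosen with earlier results of these data known. Named beside the 10 genes are the gene most alike over the libraries, the nearest measured coding genes, and from each list the called gene with the largest change, set partners, and further called genes chosen after their values were seen. Alternatives were DESeq2 1.42.0, edgeR, spike-in and upper-quartile scaling, pseudocounts of 0.1 and 5, a stricter filter (5 in at least 3 libraries), spike-ins kept, no trend, a replicate block, each line alone, and each library left out.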

Additional observations from a re-analysis of the deposited data

Results flagged for a closer look

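GPNMB stood out because its change with Dox differed between the lines by a test of the difference itself: -0.6404 on the log2 scale (MeWo minus SkMel28, SE 0.16, limma adjusted p = 0.0194), with a change of -0.03 in MeWo and 0.61 in SkMel28. All 3 SkMel28 Dox libraries were above all 3 controls, while the MeWo groups overlapped. TBC1D16 stood out by the same test, at -0.7144 (SE 0.16, adjusted p = 0.0147), with a fall of 53.8% in MeWo and 24.1% in SkMel28; 3 of 3 Dox libraries were below the controls in each line. Spike-in scaling took both differences below the threshold, to -0.27 and -0.34.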

How the results depend on the processing

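The count of called genes among the 7 in MeWo (2) was 1 with MeWo fitted alone and 2 to 3 when 1 library was left out, the 3 arising when replicate 1 of either MeWo group was dropped. In SkMel28 (4) it was 1 with spike-in scaling and 2 with no mean-variance trend, and it ranged from 2 to 4 when 1 library was left out. It was 3 with edgeR, with a pseudocount of 0.1 and with spike-ins kept. For the difference between the lines (2) it was 1 with spike-in scaling, 0 with no trend and 1 to 3 when 1 library was left out; at 0, limma without the trend gave GPNMB an adjusted p of 0.0854 and TBC1D16 0.0715. The replicate numbers did not pair the samples: deviations of same-numbered libraries correlated at -0.305, -0.0726 and 0.0474 in MeWo and -0.105, 0.12 and 0.289 in SkMel28. With the replicate number as a block the counts were 2 in MeWo, 2 in SkMel28 and 2 for the difference. The calls lost under the block were TBC1D16 (adjusted p = 0.0534) and CAPN3 (0.067) in SkMel28 and GPNMB between the control groups (0.0593).

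Uncalled changes that crossed 0 with spike-in scaling were those in MeWo of GPNMB (0.2461), ACP5 (0.06095), APOE (0.213) and DIAPH1 (0.1496), and the difference between the lines of HIF1A (0.09082). With upper-quartile scaling the difference of DIAPH1 crossed 0 (-0.02488). When 1 library was left out, changes in MeWo ranged from -0.1341 to 0.07916 for GPNMB, -0.1146 to 0.0224 for APOE and -0.3242 to 0.09704 for DIAPH1, and differences between the lines from -0.05729 to 0.2341 for ACP5 and -0.1918 to 0.2294 for DIAPH1. The cause was not tested. Of 910 single values under the alternatives, 808 kept their direction and call or moved by less than the spread, 50 lost a call, 4 gained one, 18 changed sign and 30 moved further. At 3 to 8 reads per library, PNLIPRP3 with Dox and PRDM7 with Dox in MeWo had changes that moved with the pseudocount: between 0.1 and 5, PNLIPRP3 went from -4.70 to -2.75 in MeWo and PRDM7 from -3.82 to -2.03.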
